A study of Homo sapiens with 6 samples.

Results

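Interferon-stimulated genes are the genes that cells switch on when interferon, a secreted antiviral signal, binds its receptor, or when sensors find foreign nucleic acid inside the cell. Here 34 such genes, chosen by name, were followed among the 58735 genes of an RNA-seq series on slow-cycling breast cancer cells. All 34 were found in the files, DDX58 under that older symbol of RIGI, and 32 of them passed the filter on low counts that left 15881 genes for testing. The other 2, RSAD2 and XAF1, had too few reads and are given by their counts.

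In the textbook pathway, type I interferon binds IFNAR1 and IFNAR2, the kinases JAK1 and TYK2 activate STAT2, and STAT2 and IRF9 are parts of a complex that binds the interferon-stimulated response element, a short motif in target promoters. Interferon gamma instead acts mainly through gamma-activated sites, and IRF1 is a classical target of that route. The targets include sensors of viral RNA, enzymes that degrade RNA or halt translation, the ubiquitin-like modifier ISG15, and proteins that stop viruses at membranes. Many tumour cells keep some of these genes on without added interferon.

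The cells were MDA-MB-231, an established human triple-negative breast cancer line, wild type in both groups. All had been stained with PKH26, a membrane dye that each division dilutes, and grown for 12 days. The slow-cycling group (SCC) was the brightest 1% by dye and the rapid-cycling group (RCC) was sorted at moderate dye, although the sample characteristics call it low. Each group had 3 biological replicates, 6 libraries in all, and no interferon or other agent besides the dye is named in the labels. The dye marks past divisions, so each group is a sort gate on 1 cell line and not a purified cell state.

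Summed counts per library ranged from 17655855 to 27831824. SCC replicate 1 stood apart from the others. Compared over all genes, it gave chi-square values of 27.97 and 21.01 per degree of freedom with the other SCC libraries, while that pair gave 3.31. Of 7 genes typical of mesenchymal MDA-MB-231 cells (VIM, CD44, EGFR, AXL, SPARC, MSN and CAV1), all were read in every library, by at least 434 reads. Of 3 receptor genes that define the triple-negative class when low, ESR1 had 5 to 16 reads per library and PGR had 0 in 5 libraries, whereas ERBB2 had 1314 to 2868 reads. Levels are given as CPM, the count divided by the library's TMM-scaled total and put on a common scale. Of 7 leukocyte markers, the summed level was 4.38 CPM in SCC replicate 1 and 0.956 to 1.42 CPM in the other 5 libraries. PTPRC, the pan-leukocyte gene, had 53, 5 and 15 reads in SCC and 4, 3 and 10 in RCC (edgeR unadjusted p 0.0287, adjusted p 0.206), and it was called higher when all genes with 1 or more reads were tested. ITGAM, a myeloid gene, had 26, 7 and 7 reads in SCC and 3, 3 and 2 in RCC, and CD3E, a T cell gene, had 1 read in all. Fibroblast markers summed to 23.1 to 28.4 CPM in SCC and 18.6 to 22.2 in RCC, most of it COL1A1 and PDGFRB, and DCN and COL1A2 were at 0 in 4 libraries each. COL1A1 averaged 13.4 CPM in SCC and 9.49 in RCC (edgeR unadjusted p 0.00748, adjusted p 0.124). It was called higher when all genes with 1 or more reads were tested, and by limma voom with library weights. PDGFRB averaged 11.5 CPM in SCC and 10.7 in RCC, with overlapping groups. Endothelial markers summed to 4.22 to 4.81 CPM in SCC and 3.78 to 4.81 in RCC. The leukocyte sum was thus high in 1 SCC library, with SCC replicate 2 inside the RCC range, and the fibroblast sum was higher in all SCC libraries. Their part in the results below was not tested. In bulk RNA, more cells of a kind and more RNA per cell cannot be told apart.

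The promoters of the group were read from RefSeq (GRCh38.p14), as windows from 250 bases before to 50 after each start site, and 25 of the 34 members had a window in the table. The interferon-stimulated response element was searched as GAAA, any pair of bases (NN) and again GAAA, and the gamma-activated site as TTCNNNGAA, both on either strand, where N is any base. The 4 windows shown belong to members with values in SCC above, within and below those in RCC. IRF1 (chr5:132490724-132491023, minus strand) was the member with the smallest p, ISG15 (chr1:1013247-1013546, plus strand) is a typical target, IFIT1 (chr10:89392373-89392672, plus strand) had overlapping groups, and EIF2AK2 (chr2:37156931-37157230, minus strand) had lower values in every SCC library. Each is written 5′ to 3′ along its gene, with matches to either motif in capitals.
IRF1: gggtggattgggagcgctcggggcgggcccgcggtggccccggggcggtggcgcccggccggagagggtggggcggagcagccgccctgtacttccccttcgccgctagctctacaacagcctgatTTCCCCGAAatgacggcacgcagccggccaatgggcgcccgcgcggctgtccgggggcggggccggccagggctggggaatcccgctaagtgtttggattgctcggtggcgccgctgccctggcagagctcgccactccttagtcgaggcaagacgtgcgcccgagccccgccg
ISG15: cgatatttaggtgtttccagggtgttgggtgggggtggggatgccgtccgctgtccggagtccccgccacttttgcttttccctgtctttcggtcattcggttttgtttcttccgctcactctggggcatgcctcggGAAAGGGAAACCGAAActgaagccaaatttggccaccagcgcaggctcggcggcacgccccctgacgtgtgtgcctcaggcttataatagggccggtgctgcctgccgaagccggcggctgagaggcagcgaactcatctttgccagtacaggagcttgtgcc
IFIT1: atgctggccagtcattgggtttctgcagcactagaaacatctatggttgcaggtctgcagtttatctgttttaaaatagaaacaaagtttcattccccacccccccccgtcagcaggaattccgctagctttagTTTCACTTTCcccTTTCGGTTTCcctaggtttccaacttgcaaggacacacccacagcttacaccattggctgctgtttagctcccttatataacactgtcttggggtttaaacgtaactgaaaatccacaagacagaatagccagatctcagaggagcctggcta
EIF2AK2: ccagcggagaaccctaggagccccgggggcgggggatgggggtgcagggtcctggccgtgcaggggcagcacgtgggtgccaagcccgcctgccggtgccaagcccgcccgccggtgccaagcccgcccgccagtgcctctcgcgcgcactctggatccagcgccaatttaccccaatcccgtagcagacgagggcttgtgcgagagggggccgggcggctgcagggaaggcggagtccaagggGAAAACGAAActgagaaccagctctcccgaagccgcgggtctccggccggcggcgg
The IRF1 window held the gamma-activated site TTCCCCGAA, beginning 124 bases before the start, and no response element. The ISG15 window held GAAAGGGAAA and GAAACCGAAA, which overlap, and that of IFIT1 held TTTCACTTTC and TTTCGGTTTC, which match on the opposite strand. In EIF2AK2 the match GAAAACGAAA began 6 bases before the start.

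At least 1 window held the response element in 17 of the 25 members (68.0%), against 4.38% of the 27305 genes in the table. The gamma-activated site was found in 8 of 25 (32.0%, against 9.38%). The AP-1 motif TGANTCA, searched because the series title names AP-1, a dimeric factor of FOS and JUN proteins, was found in 3 of 25 (12.0%, against 9.37%): IFIT5, ISG20 and MX1. The response element was in 7 of 9 members that were higher in SCC at an unadjusted p under 0.05 and in 9 of the 14 other tested members with a window. A match is a string of letters in these windows and was not tested as a binding site.

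Most members had somewhat higher values in slow-cycling cells, but few passed the test. The log2 ratio of SCC over RCC (the log2 fold change fitted by edgeR) was above 0 for 26 of the 32 tested members (81.2%), as it was for 50.5% of all tested genes. The members' median was 0.21, against 0.003 over all tested genes. By edgeR's quasi-likelihood test with Benjamini-Hochberg adjustment over all tested genes, 2 members rose, the transcription factor IRF1 and the OAS-like gene OASL, which is 6.25% of the members against a background of 1.69% called higher. In either direction the background was 2.07%. Called lower by edgeR were 0 members, beside 0.378% of all tested genes. DESeq2 also called 0 lower, beside 182 of 15881 tested genes. Limma voom with library weights called 1 lower (EIF2AK2), beside 1122 of 15881.

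More members leaned the same way below that threshold. Taking p before adjustment, 14 members were under 0.05 with higher values in SCC (43.8%, against 11.4% of all tested genes), and EIF2AK2 was the 1 with lower values (against 8.27%). All 3 SCC libraries lay above all 3 RCC libraries in 17 members, compared with 14.4% of all tested genes. They lay below in 1 member, compared with 13.4%. The remaining 14 members had overlapping groups. Members were picked as 1 pathway, so they are not independent of each other, and these counts are a description of the list.

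**Figure D1:**
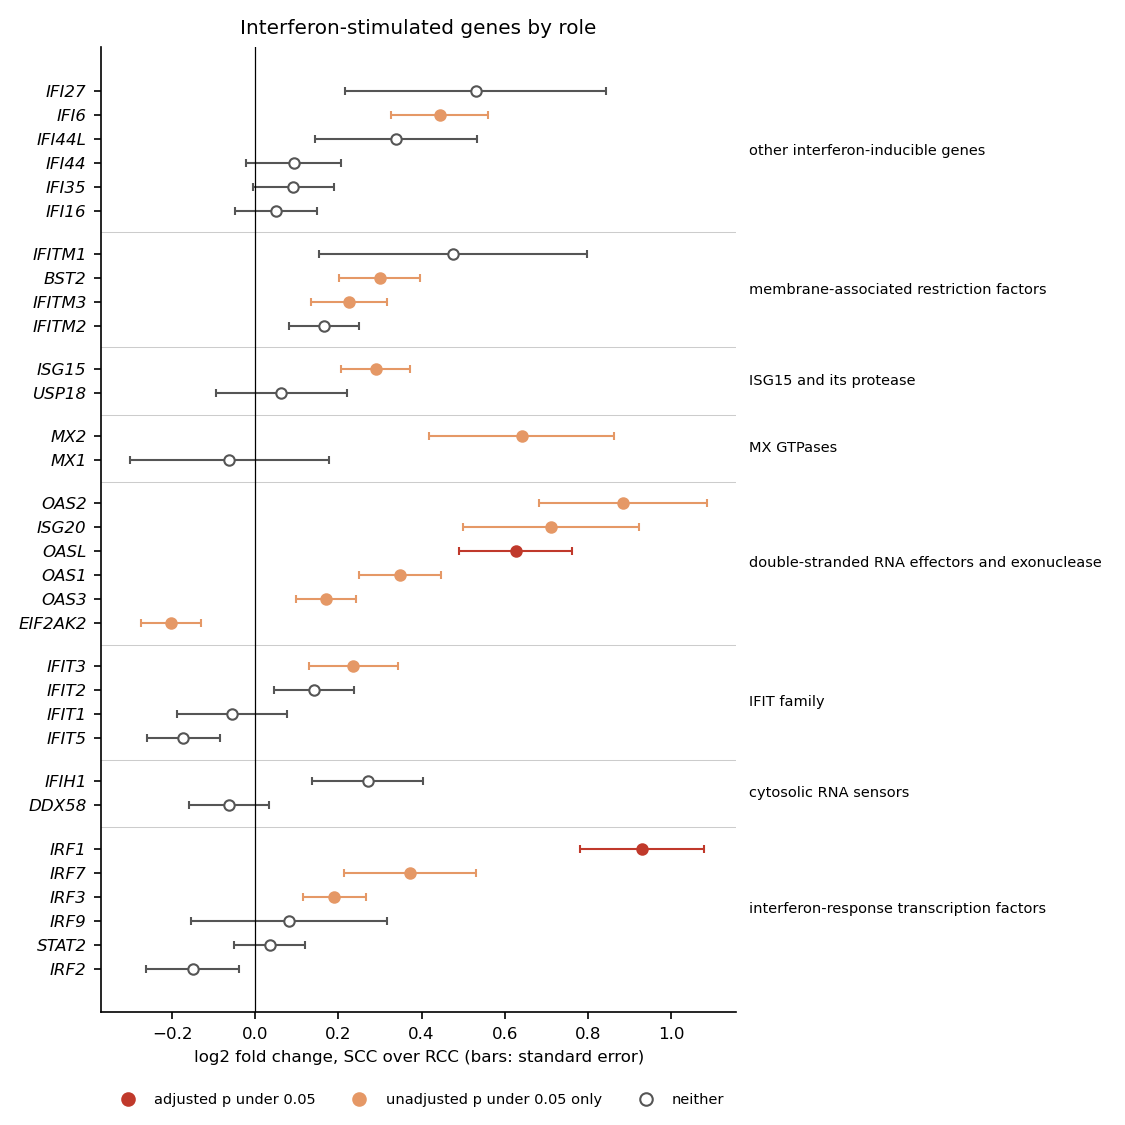
Log2 ratio (fold change) of SCC over RCC (x axis) for the 32 tested members, grouped by role, with bars of 1 standard error. Filled red points passed the adjusted threshold (IRF1 and OASL), filled orange points only the unadjusted one, and open points neither; 26 of the 32 points lie right of 0.

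The summed level of all 34 members was modestly higher in SCC. It was 1197, 1170.3 and 1177 CPM in SCC replicates 1 to 3 and 1081, 1105 and 1071 in RCC replicates 1 to 3. The groups did not overlap, at 1181 ± 13.8 against 1086 ± 17.7 CPM (SD, n = 3). IFITM3 alone held between 171 and 236 of these CPM. RCC libraries held the lowest value of 25 of the 32 tested members, 9 of them in RCC replicate 1, 7 in RCC replicate 2 and 9 in RCC replicate 3. SCC replicate 1 held the highest value of 11 members and the lowest of 6. These counts of highest and lowest libraries were not made over all tested genes.

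Per length, in FPKM (the count divided by gene length and library size), mean levels ran from 0.0105 to 140. The highest was the membrane protein gene IFITM3, at 150.1 ± 19.8 FPKM in SCC and 129 ± 3.13 in RCC (SD, n = 3), then IFITM2 at a mean over all libraries of 46.5 FPKM and ISG15 at 37.7. IRF3 (25.3), BST2 (21.9), IFIT3 (19.6), IFI44 (14.2), IFIT5 (13.9) and IFI6 (13 FPKM) followed. Each of these was read in all 6 libraries, so mRNA of these genes was present in both groups. At the other end, IRF9 stood at 0.627, ISG20 at 0.544, OAS2 at 0.471, IFI44L at 0.293, MX1 at 0.248, IFI27 at 0.244, MX2 at 0.19, RSAD2 at 0.0468 and XAF1 at 0.0105 FPKM. Neighbours in this order, such as IFIT5 and IFI44 or MX1 and IFI27, had ranges over the 6 libraries that overlap.

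**Figure D2:**
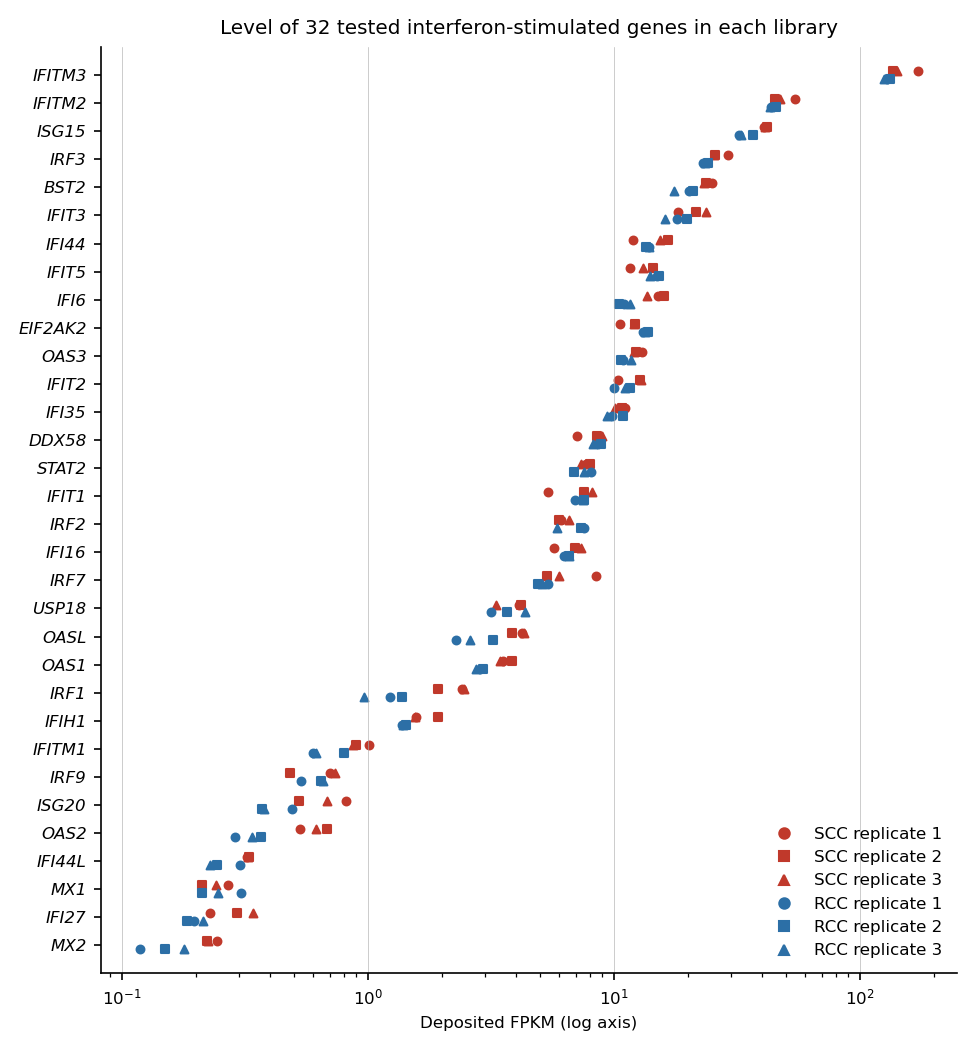
Deposited FPKM (x axis, log scale) of the 32 tested members in each library, ordered by mean, with SCC in red and RCC in blue and the replicate by symbol. IFITM3 lies near 140 FPKM and MX2 near 0.19, and within most genes the 6 points spread far less than the genes differ from each other.

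Among the transcription factors, IRF1 rose, with the largest log2 ratio of the tested members over all libraries. OAS2 was above it without SCC replicate 1 (0.98 against 0.88), without RCC replicate 3 (0.89 against 0.80) and with an offset for GC content (0.91 against 0.88). IRF1 (ENSG00000125347, chromosome 5, 132481609 to 132490798 on GRCh38, as all gene positions here) activates interferon and antigen presentation genes and is itself induced by interferon gamma and by NF-kB. Its values were 19.1, 15.1 and 19.4 CPM in SCC replicates 1 to 3 and 9.69, 10.8 and 7.55 in RCC replicates 1 to 3. Every SCC library lay above every RCC library. The mean was 17.8 ± 2.39 CPM over the SCC libraries and 9.33 ± 1.63 over the RCC libraries (SD, n = 3), a log2 ratio of 0.93 with a standard error (SE) of 0.149, or 1.91-fold (edgeR adjusted p 0.00906). The call was lost without RCC replicate 1 (adjusted p 0.0613) or RCC replicate 3 (0.0545), with log2 ratios of 0.95 and 0.80. With limma on log2(FPKM + 1), where this low gene's log2 ratio is 0.58 on that scale, the adjusted p was 0.0799. Over all 19 alternatives the adjusted p of IRF1 ran from 1.22e-09 to 0.271.

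IRF1 shares 22% of its exon bases with C5orf56 on the opposite strand, and whether strand was used in counting is not given in the sources used here. C5orf56 itself averaged 2.44 CPM (SCC) and 2.03 (RCC) and was not called (log2 ratio 0.26, edgeR adjusted p 0.629).

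Of the other 4 interferon regulatory factors, 0 were called by edgeR (beside 2.07% of all tested genes) or by DESeq2. IRF3 and IRF7 had higher values in SCC at an unadjusted p under 0.05, as had 11.4% of all tested genes. IRF3, the latent factor that sensors activate to start interferon transcription, was at 113, 98.4 and 97.2 CPM in the SCC libraries and 88.5, 91.7 and 89.9 in the RCC libraries. Its groups did not overlap, with a log2 ratio of 0.19 (SE 0.0758, adjusted p 0.207) that was 0.12 without SCC replicate 1. IRF3 shares 19.35% of its exon bases with BCL2L12 on the opposite strand, which stood at 64.4 CPM in SCC and 56.7 in RCC. IRF7, which amplifies the interferon response, was at 22.6, 14.2 and 15.8 CPM in the SCC libraries and 14.3, 12.9 and 13.5 in the RCC libraries. Only SCC replicate 1 stood clear of the RCC range by much, and SCC replicate 2 lay within it. Its log2 ratio of 0.37 (adjusted p 0.233) was 0.14 without SCC replicate 1. IRF2, an antagonist of IRF1 at shared sites, had a log2 ratio of -0.15 with overlapping groups (adjusted p 0.466).

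For 2 parts of the complex that carries the type I interferon signal, STAT2 and IRF9, the difference lay within the spread of the libraries. STAT2 was at 47.7, 49 and 45.2 CPM in the SCC libraries and 50.1, 42 and 46.5 in the RCC libraries. Its groups overlapped fully, and the log2 ratio was 0.035 with an SE of 0.0858 (adjusted p 0.843). IRF9, the DNA-binding partner of STAT2, was at 2.71, 1.84 and 2.8 CPM in the SCC libraries and 2.04, 2.44 and 2.52 in the RCC libraries, also overlapping. Its log2 ratio was 0.082 with an SE of 0.236 (adjusted p 0.866), and without SCC replicate 1 it was 0.002. The IRF9 level is uncertain, because 48.44% of its exon bases are shared with AL136295.5 on the same strand, and reads in shared exons cannot be assigned to 1 gene.

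The cytosolic RNA sensors DDX58 and IFIH1 detect viral double-stranded RNA and signal through MAVS. DDX58, better known as RIG-I, was at 35.9 ± 4.01 against 37.4 ± 1.27 CPM (SD, n = 3) with overlapping groups, a log2 ratio of -0.062 and an adjusted p of 0.736. Without SCC replicate 1 its sign changed, to 0.028. IFIH1, or MDA5, was at 8.12, 9.92 and 8.02 CPM in the SCC libraries and 7.09, 7.31 and 7.16 in the RCC libraries. Its groups did not overlap, but the difference did not pass the test (log2 ratio 0.27, adjusted p 0.286).

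Oligoadenylate synthetases respond to double-stranded RNA. OAS1, OAS2 and OAS3 make a short RNA-like messenger that activates RNase L, and OASL lacks that activity and instead enhances RIG-I signalling. In all 4 genes every SCC library lay above every RCC library, an order that 14.4% of all tested genes showed. OASL (ENSG00000135114, chromosome 12, 121019111 to 121039242) rose. Its values were 15.2, 13.7 and 15.2 CPM in SCC replicates 1 to 3 and 8.09, 11.3 and 9.17 in RCC replicates 1 to 3, or 14.7 ± 0.88 CPM over the SCC libraries and 9.51 ± 1.62 over the RCC libraries (SD, n = 3). The log2 ratio was 0.63 with an SE of 0.136, or 1.54-fold (edgeR adjusted p 0.0439). OASL was close to the threshold and lost the call when SCC replicate 3 was left out (adjusted p 0.119) and when either RCC replicate 1 or 3 was (0.209 and 0.188). Limma did not call it on log2(FPKM + 1) (adjusted p 0.103), on log2(FPKM + 0.1) (0.107) or on log2(FPKM + 1) without a filter (0.308). Over all alternatives its adjusted p ran from 0.000515 to 0.308.

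OAS1, OAS3 and OAS2 lie side by side on chromosome 12, from 112906777 to 113011723. They differed widely in level and in fold change. OAS2, the lowest of the set, was at 3.38, 4.29 and 3.89 CPM in the SCC libraries and 1.83, 2.29 and 2.13 in the RCC libraries. These are among the largest relative differences of the list (log2 ratio 0.88, SE 0.203), and the adjusted p of 0.0523 just missed the threshold. It was 0.0133 without SCC replicate 1 and 0.0285 by DESeq2, in a range of 0.00264 to 0.554 over the alternatives. OAS1 was at 17.9, 19.1 and 17.1 CPM in the SCC libraries and 14.3, 14.5 and 13.7 in the RCC libraries. Its log2 ratio was 0.35 (SE 0.0984, adjusted p 0.0995), and without SCC replicate 1 it passed (0.042, range over the alternatives 0.0244 to 0.348). OAS3, the highest of the set, was at 109, 102 and 99.9 CPM in the SCC libraries and 90.5, 88.4 and 97.8 in the RCC libraries, a log2 ratio of 0.17 (SE 0.0718, adjusted p 0.229), or 0.093 with the GC content offset described below. The fold changes of neighbouring OAS genes were not tested against each other.

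EIF2AK2 had its values in the opposite order. It encodes PKR, the kinase that halts translation when it binds double-stranded RNA, and its values were 115, 132 and 130.5 CPM in SCC replicates 1 to 3 and 142, 148 and 145 in RCC replicates 1 to 3. Every SCC library lay below every RCC library, with SCC replicate 1 the lowest. The log2 ratio was -0.20 with an SE of 0.0722 and did not pass the test (adjusted p 0.167). With the GC offset it was -0.089. ISG20, an exonuclease of single-stranded RNA, was at 6.08, 3.88 and 5.03 CPM in the SCC libraries and 3.65, 2.72 and 2.8 in the RCC libraries. All SCC values lay above all RCC values, the nearest being 3.88 in SCC replicate 2 and 3.65 in RCC replicate 1 (log2 ratio 0.71, SE 0.212, adjusted p 0.116). It was past the threshold without SCC replicate 2 (0.0397, range 0.0183 to 0.617).

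**Figure D3:**
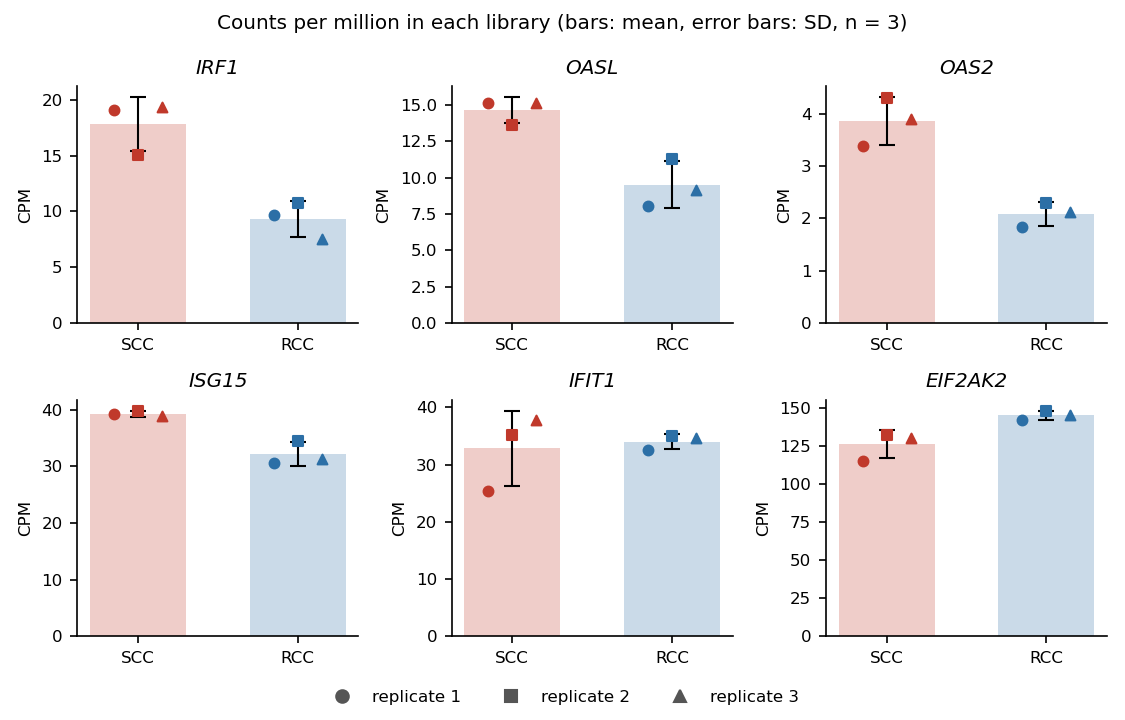
CPM (y axis, from 0) of 6 members in each library, with bars for the group mean and error bars for the SD of 3 libraries. IRF1, OASL, OAS2 and ISG15 have every SCC point above every RCC point, IFIT1 overlaps with its lowest point in SCC replicate 1, and EIF2AK2 has every SCC point below.

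The IFIT genes encode proteins that bind abnormal viral RNA ends and block their translation, and they lie in a row on chromosome 10 between 89283694 and 89421001. In all 4 the groups overlapped. IFIT3 was at 49.1, 57.1 and 63 CPM in the SCC libraries and 48.3, 52.4 and 42.7 in the RCC libraries (log2 ratio 0.24, SE 0.107, adjusted p 0.252). IFIT2 was at 49.7 ± 5.49 against 45 ± 2.98 CPM and IFIT1 at 32.8 ± 6.58 against 34 ± 1.35 CPM (SD, n = 3), with log2 ratios of 0.14 and -0.056. IFIT5 was at 52.9 ± 5.43 against 59.5 ± 2.44 CPM with a log2 ratio of -0.17 (adjusted p 0.295), or -0.10 without SCC replicate 1. SCC replicate 1 held the lowest SCC value of each of the 4. Without it IFIT3 and IFIT2 passed the threshold, with log2 ratios of 0.33 and 0.23 and adjusted p of 0.00766 (range over the alternatives 0.00228 to 0.632) and 0.0482 (range 0.0158 to 0.778), and IFIT1 changed sign to 0.10 (adjusted p 0.509).

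The MX genes encode GTPases that trap viral nucleocapsids, MX1 in the cytoplasm and MX2 at the nuclear envelope. Both were low, under 4 CPM in every library. MX2 was at 3.23, 2.91 and 2.94 CPM in the SCC libraries and 1.56, 1.96 and 2.35 in the RCC libraries, with no overlap (log2 ratio 0.64, SE 0.223, adjusted p 0.161). MX1, a common reporter of interferon exposure, was at 2.37, 1.84 and 2.09 CPM in the SCC libraries and 2.65, 1.82 and 2.13 in the RCC libraries. Its values overlapped fully, with a log2 ratio of -0.062 and an SE of 0.239 (adjusted p 0.904). Without SCC replicate 1 it was -0.17.

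ISG15 is a ubiquitin-like protein that is attached to other proteins by a short enzyme chain, in which UBE2L6 is the conjugating enzyme and HERC5 the main ligase, and USP18 removes it and also restrains the interferon receptor. ISG15 (ENSG00000187608, chromosome 1, 1001138 to 1014540) was at 39.2, 39.8 and 38.8 CPM in SCC replicates 1 to 3 and 30.6, 34.5 and 31.3 in RCC replicates 1 to 3. The SCC libraries lay within 1 CPM of each other and all exceeded the RCC libraries. The mean was 39.2 ± 0.494 CPM over the SCC libraries and 32.1 ± 2.1 over the RCC libraries (SD, n = 3), a log2 ratio of 0.29 (SE 0.082) that did not pass the test over all libraries (adjusted p 0.0995) and did without SCC replicate 1 (0.0266, range over the alternatives 0.00612 to 0.783). ISG15 is rich in GC (63.4%), and an offset for GC content brought it to 0.065 (adjusted p 0.783).

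UBE2L6 (ENSG00000156587, chromosome 11, 57551656 to 57568284), which is not a member, rose. It was at 26.3, 25 and 25.7 CPM in SCC replicates 1 to 3 and 17.6, 19.4 and 18.7 in RCC replicates 1 to 3, a log2 ratio of 0.47 (SE 0.0897, edgeR adjusted p 0.0245). The call was lost when SCC replicate 3 was left out (0.0914) and when RCC replicate 1, 2 or 3 was (0.18, 0.0973 and 0.132). It was also lost by limma on log2(FPKM + 1) without a filter (adjusted p 0.088). Over all alternatives the adjusted p of UBE2L6 ran from 0.000311 to 0.18. USP18 was at 8.32 ± 1.08 against 8.0 ± 1.27 CPM (SD, n = 3) with overlapping groups, a log2 ratio of 0.063 (0.007 without SCC replicate 1) and an adjusted p of 0.843. HERC5 had a log2 ratio of 0.25 with overlapping groups (adjusted p 0.278).

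Of the membrane-associated factors, all 4 tested members had every SCC library above every RCC library, against 14.4% of all tested genes. IFITM2 did so by a margin of only 69.99 over 69.96 CPM. BST2, or tetherin, which holds budding viruses on the cell surface, was at 28.6, 26.8 and 26.2 CPM in the SCC libraries and 22.9, 23.5 and 19.9 in the RCC libraries. The groups were separate, at a log2 ratio of 0.30 (SE 0.0964, adjusted p 0.138), which was 0.17 with the GC offset. IFITM3, which blocks virus fusion in endosomes, was at 236, 184 and 191 CPM in SCC replicates 1 to 3 and 176, 178 and 171 in RCC replicates 1 to 3. SCC replicate 1 was far above the rest, and the log2 ratio of 0.22 (SE 0.0913, adjusted p 0.214) was 0.10 without that library. IFITM2, its close relative, was at 85.3, 69.99 and 73.6 CPM in the SCC libraries and 67.6, 69.96 and 66.7 in the RCC libraries, a difference of 0.17 on the log2 scale (SE 0.0848, adjusted p 0.298). Omitting SCC replicate 1 brought that to 0.077, and the GC offset to 0.068. IFITM1 was low, at 1.01 ± 0.089 against 0.728 ± 0.115 CPM (log2 ratio 0.48, adjusted p 0.419). The IFITM genes are near-identical copies, and IFITM1 shares 351 exon bases with IFITM2 on the same strand, so the split of reads among them is uncertain.

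RSAD2, or viperin, an enzyme that makes a chain-terminating nucleotide, was too low to be tested. Its counts were 10, 8 and 6 reads in SCC and 2, 1 and 3 in RCC. All SCC counts were above all RCC counts, at a depth where 1 library can decide the order. With no filter beyond 1 read in all, its edgeR adjusted p was 0.391. XAF1, a proapoptotic interferon target, had 4, 1 and 1 reads in SCC and 4, 0 and 0 in RCC, with no order.

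The remaining members share a name for their induction by interferon and differ in function. IFI6, a small mitochondrial and endoplasmic reticulum protein, was at 13.3, 14 and 11.9 CPM in the SCC libraries and 9.61, 9.03 and 10.1 in the RCC libraries. Its groups did not overlap (log2 ratio 0.44, SE 0.117, adjusted p 0.0832), and the adjusted p was 0.0379 without SCC replicate 1 (range 0.0236 to 0.294). IFI27 (1.2 ± 0.23 against 0.828 ± 0.0652 CPM) and IFI44L (3.37 ± 0.0043 against 2.65 ± 0.417 CPM, SD, n = 3) were low and had separate groups, with log2 ratios of 0.53 and 0.34 and adjusted p of 0.361 and 0.349. IFI44, IFI35 and IFI16, the last a DNA sensor, had overlapping groups and log2 ratios of 0.092, 0.092 and 0.049, with adjusted p from 0.614 to 0.803. Both IFI44 and IFI16 had their lowest value in SCC replicate 1, and without it their log2 ratios were 0.22 and 0.15. That of IFI35 was 0.057 without that library and -0.062 with the GC offset.

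SCC replicate 1 deviated in opposite directions in members of low and of high GC content. The split that follows was chosen after the values were seen. In the 16 members with GC content from 37.4% to 50.5%, its log2 level lay a median of -0.077 from the 6-library mean. In the 16 from 51.4% to 66.8% that deviation was 0.24. The median log2 ratio was 0.12 in the first set and 0.26 in the second. Without SCC replicate 1 the medians were 0.23 and 0.14, and with an offset for each gene's GC content 0.20 and 0.08. The set with the larger median was thus the GC-rich one over all libraries and the other one under both alternatives. Over all tested members the median was 0.21, and it was 0.18 with that library omitted and 0.13 after the GC offset.

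Single members differed in how far these settings moved them. The log2 ratios of IRF1 (0.88 and 0.88), OASL (0.60 and 0.59), OAS2 (0.98 and 0.91) and OAS1 (0.35 and 0.35) stayed near their values over all libraries in the fit that omits SCC replicate 1 and in the one with the offset, in that order. With the offset, the log2 ratios of the GC-rich IRF7 (0.048), IRF3 (0.035), ISG15 (0.065) and IFITM3 (0.10) were small, 0.035 to 0.10. Called higher were 8 members without SCC replicate 1 (IRF1, IFIT2, IFIT3, OAS1, OAS2, OASL, ISG15 and IFI6) and 4 with the GC offset (IRF1, OAS1, OAS2 and OASL). Over all tested genes the calls also became more frequent in these fits, at 642 of 16324 higher without that library and 523 of 15874 with the offset, against 268 of 15881. Without RCC replicate 1 or RCC replicate 3, 0 members were called higher, beside 99 of 16283 and 103 of 16340 tested genes. Without SCC replicate 3 the count of members was 1, beside 179 of 16377 tested genes. Without SCC replicate 2 it was 3, beside 585 of 16402.

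**Figure D4:**
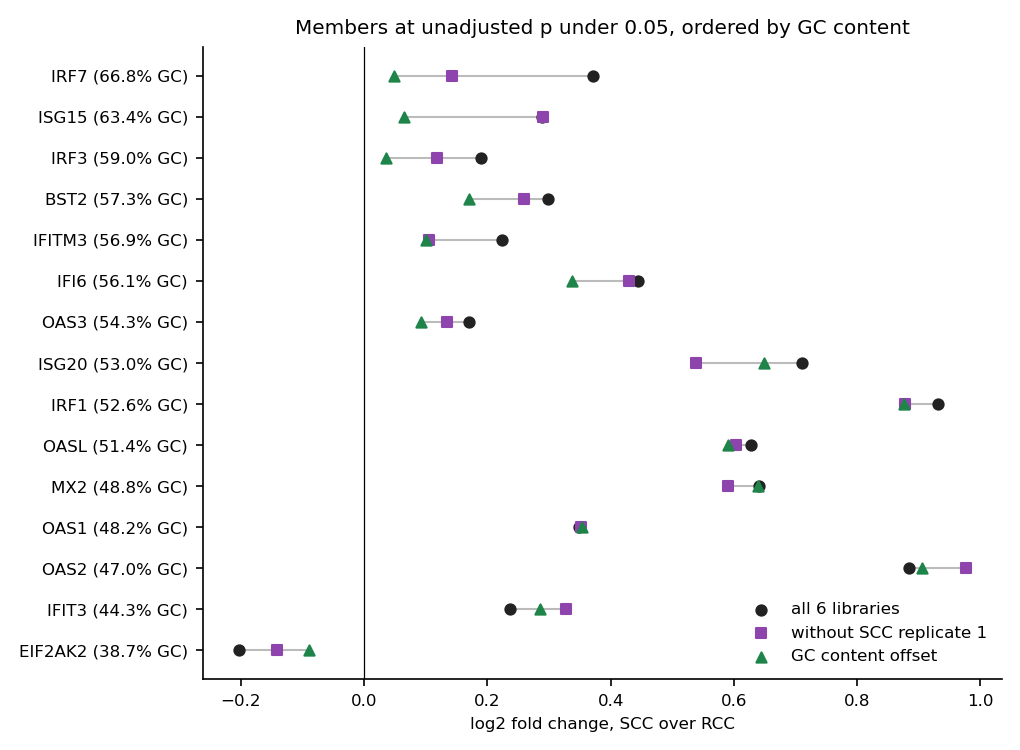
Log2 ratio (fold change) of SCC over RCC (x axis) for the 15 members at an unadjusted p under 0.05, ordered by GC content from low (bottom) to high (top), over all libraries (circles), without SCC replicate 1 (squares) and with a GC content offset (triangles). IRF1, OASL, OAS1 and OAS2 keep nearly the same value, whereas IRF7 and IRF3 near the top lie closer to 0 under both alternatives and ISG15 does so only with the offset.

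By edgeR, none of the receptor and kinase genes tested here was called, beside 2.07% of all tested genes called in either direction. The interferon ligand genes were too low to be tested. Of 10 interferon ligand genes, 8 had 0 reads in all 6 libraries, among them IFNB1, IFNA1 and IFNA2. IFNG had 1 read in RCC replicate 1, and IFNL1 had 2 in SCC replicate 2 and 1 in RCC replicate 1. A count of 0 in the deepest library allows up to 3 reads in 27831824, so the mRNA of those 8 was not detectable at this depth. Of the 5 tested receptor genes, 0 were called by edgeR, DESeq2 or limma voom with library weights. Before adjustment 0 had an edgeR p under 0.05, against 11.4% of all tested genes higher and 8.27% lower. IFNAR1 was at 63.3 ± 4.25 against 64.8 ± 3.9 CPM (SD, n = 3; log2 ratio -0.033, SE 0.0806). IFNAR2 was at 0.833 ± 0.176 against 1.12 ± 0.28 CPM (log2 ratio -0.44, SE 0.341), too low for a firm value. Without SCC replicate 1 these log2 ratios were 0.022 for IFNAR1 and -0.26 for IFNAR2. IFNGR2, a chain of the interferon gamma receptor, had the smallest p, at a log2 ratio of 0.14 (adjusted p 0.415).

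The kinases gave the same count. None of JAK1, JAK2 and TYK2 was called by those 3 tools, nor had any an unadjusted p under 0.05 by edgeR. JAK1 had -0.061 (SE 0.0788), TYK2 0.033 (0.0857) and JAK2 0.15 (0.124) on the same log2 scale. Without SCC replicate 1 they were -0.018, -0.053 and 0.25, in the same order. A p that misses the threshold does not show equal levels. These standard errors are small beside the log2 ratio of IRF1, the largest of the members. For JAK2 (0.15, SE 0.124) they do not tell the value apart from the members' median of 0.21.

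Of 10 tested genes of nucleic acid sensing, 0 were called by edgeR, beside 2.07% of all tested genes. At an unadjusted p under 0.05 by edgeR, 2 had higher values (20%, against 11.4% of all tested genes) and 1 lower (against 8.27%). By DESeq2 1 was called higher (TICAM1), beside 474 of 15881 tested genes. Limma voom with library weights called TICAM1 and TMEM173 higher and TLR3 lower, beside 1383 higher and 1122 lower of those 15881 genes. TICAM1, the adaptor of the RNA receptor TLR3, had the smallest p. It was at 34.2, 24.5 and 27.8 CPM in the SCC libraries and 21.9, 20.1 and 20.6 in the RCC libraries, with separate groups and a log2 ratio of 0.47 (SE 0.122, adjusted p 0.0793). With the GC offset it was 0.23, and without SCC replicate 1 0.33 (adjusted p 0.0342, range over the alternatives 0.00199 to 0.406). TMEM173, or STING, was higher at the unadjusted level (0.27) and TLR3 lower (-0.29), with adjusted p of 0.149 and 0.202. Of 5 negative regulators, 0 were called by edgeR, beside 2.07% of all tested genes. DESeq2 also called 0, beside 474 higher and 182 lower of 15881 tested genes. Before adjustment 0 had an edgeR p under 0.05, against 11.4% of all tested genes higher and 8.27% lower. The JAK inhibitor SOCS3 (log2 ratio -0.16, adjusted p 0.4) was called lower by limma voom with library weights and by edgeR with the GC offset (alone or with a replicate block) or when SCC replicate 1 was omitted. PTPN2, a phosphatase that acts on JAK kinases, came closest (log2 ratio -0.16, adjusted p 0.398), at -0.040 without SCC replicate 1.

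**Figure D5:**
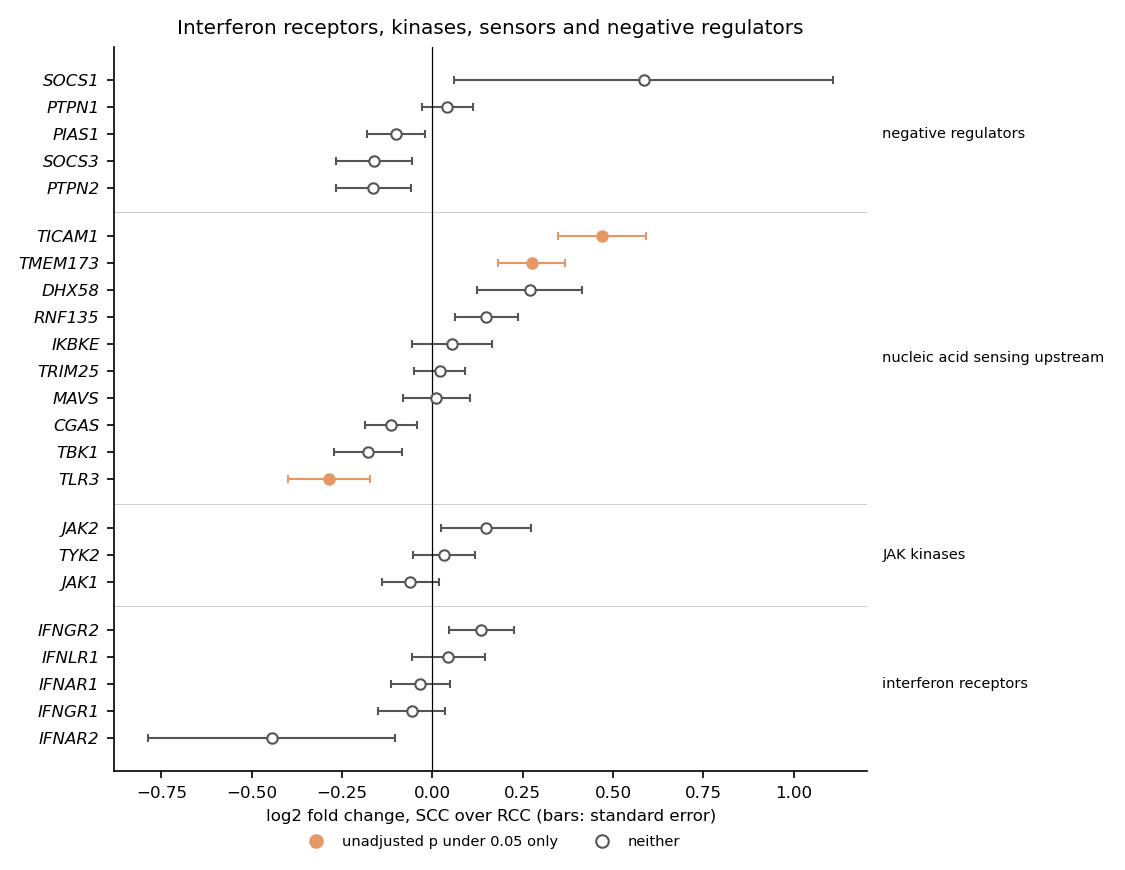
Log2 ratio (fold change) of SCC over RCC (x axis) with bars of 1 standard error for the tested receptors, JAK kinases, sensing genes and negative regulators. Orange points had an unadjusted p under 0.05 (TICAM1 and TMEM173 higher, TLR3 lower), and no gene passed edgeR's adjusted threshold.

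A wider list held 50 further interferon-stimulated genes. Of the 45 tested, 32 had a log2 ratio above 0 (71.1%, against 50.5% of all tested genes) and the median was 0.073, against 0.21 for the members. By edgeR UBE2L6 and LGALS3BP rose (4.44%, against 1.69% of all tested genes) and 0 genes fell (against 0.378%). DESeq2 called these 2 and the helicase gene DDX60 higher (by edgeR, log2 ratio of DDX60 0.46, adjusted p 0.0832) and 0 lower. Over all 15881 tested genes DESeq2 called 474 higher and 182 lower. Without SCC replicate 1, edgeR called DDX60 and the guanylate-binding protein gene GBP2 higher as well (log2 ratio of GBP2 over all libraries 0.18, adjusted p 0.262), and with the GC offset also SLFN5. Limma voom with library weights called 8 higher and 3 lower (DDX60L, PLSCR1 and PNPT1), beside 1383 higher and 1122 lower of 15881 tested genes. Before adjustment, edgeR's p was under 0.05 for 7 with higher values (15.6%, against 11.4% of all tested genes) and 4 with lower values, where all tested genes gave 8.27%. Both shares before adjustment are near the background. LGALS3BP (ENSG00000108679, chromosome 17, 78971238 to 78980109), a secreted glycoprotein that binds galectin-3, was at 598, 480.01 and 485 CPM in SCC replicates 1 to 3 and 377, 383 and 374 in RCC replicates 1 to 3. All SCC values exceeded all RCC values, at 521 ± 66.7 CPM over the SCC libraries and 378 ± 4.73 over the RCC libraries (SD, n = 3), a log2 ratio of 0.46 (SE 0.0856, edgeR adjusted p 0.0203). It was 0.35 when SCC replicate 1 was omitted and 0.28 after the GC offset, still called in both. LGALS3BP was not called without RCC replicate 1, 2 or 3 (edgeR adjusted p 0.121, 0.0983 and 0.13). Limma did not call it on log2(FPKM + 1) (adjusted p 0.0822), on log2(FPKM + 0.1) (0.0851) or on log2(FPKM + 1) without a filter (0.272). Its adjusted p ran from 2.58e-07 to 0.272 over all alternatives. The chemokine genes CXCL10 and CXCL11, strongly induced by interferon gamma in many cells, had 0 to 3 reads per library.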

How the data were processed

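RNA-seq was analysed from 3 SCC and 3 RCC libraries. The authors deposited whole-number counts per gene, and HISAT2 2.0.5 and featureCounts 1.5.0-p3 are named in the submitters' processing notes. The authors also deposited FPKM per gene, in which each value equals the count divided by gene length and 1 constant per library. Build, annotation and use of strand are not given in the sources used here. All 58735 rows had the positions of GENCODE release 29 (GRCh38), which gave overlaps and the GC content of each gene's longest transcript.

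Counts were filtered with filterByExpr (minimum count 10), scaled by TMM and tested with edgeR 4.0.16 (R 4.3.3) on group alone, two-sided, with Benjamini-Hochberg adjustment over 15881 genes. An adjusted p under 0.05 was called. CPM uses TMM-scaled totals, and the standard error is the fold change over the square root of F. The labels call the replicates biological and name no batch. The fits were tested on simulated data.

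The members and lists were chosen with earlier results of these data known. Values per library were given for members at an unadjusted p under 0.05, STAT2, IRF9, IRF1 and the 3 highest by FPKM, and, outside that rule and after their values were seen, for IFIH1 and MX1. JAK1, TYK2, IFNAR1, IFNAR2, the pathway genes called and the smallest p of lists with 0 calls were also named. HERC5, TMEM173, TLR3, IFNB1, IFNA1, IFNA2, IFNG, IFNL1, CXCL10, CXCL11, SOCS3, DDX60, GBP2, SLFN5, DDX60L, PLSCR1 and PNPT1 were chosen after their values were seen. In 19 alternatives, tests (DESeq2 1.42.0, limma 3.58.1 on FPKM or by voom with quality weights), scaling, filters, thinning, a GC offset (lowess, span 0.3), a replicate block, and omission of each library in turn were tried. MB21D1 was matched as CGAS through RefSeq synonyms. 1 gene of the pathway lists is not reported here.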

Additional observations from a re-analysis of the deposited data

How the results depend on the processing

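Of 32 tested members, 23 kept the direction of their log2 ratio in every alternative, and 9 changed it in at least 1, none by more than 0.122 beyond 0. IRF1 was called in all but 5 alternatives: the 3 with limma on FPKM and the 2 without RCC replicates 1 and 3. The counts moved more than the directions. The main counts were 268 genes called higher and 60 lower, 2 and 0 of them members and 2 and 0 pathway genes, with a member median of 0.207. By DESeq2 they were 474 and 182, with 3 members and 4 pathway genes higher. A test of all genes with 1 or more reads gave 995 and 315, with 5 members and 5 pathway genes higher and a median of 0.237. The GC content offset gave 523 and 244, with 4 members higher, 0 members lower before adjustment, 5 pathway genes higher and 1 lower, and a median of 0.132. With limma on log2(FPKM + 1) the counts were 130 and 36, and with a pseudocount of 0.1 they were 117 and 34. Both gave 0 members called, 8 higher before adjustment, 1 pathway gene higher, and medians of 0.15 and 0.157. Without a filter limma gave 48 and 1, with 0 members, 0 pathway genes and a median of 0.112. Voom with library quality weights gave 1383 and 1122, with 11 members higher and 1 lower, 2 lower before adjustment, and 10 pathway genes higher and 5 lower. Thinning to the smallest library left 2 members lower before adjustment. Scaling by RLE or upper quartile and a filter of 10 counts in every library moved no count past 1.5 times. Leaving out each library in turn gave 99 to 642 genes higher, 8 to 343 lower, 0 to 8 members higher and 0 lower, 8 to 16 members higher and 0 to 2 lower before adjustment, medians of 0.182 to 0.214, and 0 to 5 pathway genes higher and 0 to 1 lower. The highest counts came without SCC replicate 1, and the cause of these shifts was not tested.

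The replicate block gave 350 genes called higher and 106 lower, with 2 members and 3 pathway genes higher. With the replicate block and the GC content offset together, 621 and 430 genes were called, with 6 members higher, 0 members lower before adjustment, 5 pathway genes higher and 1 lower, and a median of 0.13. Deviations of same-numbered libraries from their group means correlated at -0.01, 0.02 and -0.08. With so few libraries per group, these values cannot show whether same-numbered libraries were handled together.

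Uncalled genes changed sign as follows. With the GC offset alone and with the block added, log2 ratios were -0.018 and -0.027 for IRF9, 0.027 and 0.026 for DDX58, 0.011 and 0.001 for IFIT1, -0.062 and -0.057 for IFI35, 0.039 and 0.041 for IFNAR1, and -0.159 and -0.158 for TYK2. With voom weights they were -0.014 for STAT2, 0.032 for DDX58, 0.122 for IFIT1, -0.056 for USP18, 0.007 for IFNAR1 and -0.024 for TYK2. Leaving out single libraries gave ranges of -0.035 to 0.088 for STAT2, -0.029 to 0.228 for IRF9, -0.136 to 0.028 for DDX58, -0.181 to 0.105 for IFIT1, -0.191 to 0.091 for MX1, -0.053 to 0.176 for USP18, -0.019 to 0.216 for IFI44, -0.031 to 0.148 for IFI16, -0.084 to 0.022 for IFNAR1 and -0.053 to 0.08 for TYK2.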
